A study of Mus musculus with 22 samples.

Results

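The effect of Cd53 loss on haematopoietic stem cells (HSCs) was compared between the spleen and the bone marrow of mice given granulocyte colony-stimulating factor (G-CSF). The measure is an interaction, the KO minus WT difference in spleen less the KO minus WT difference in marrow. It is computed per gene on a log2 scale, so a positive value means that KO was higher, relative to WT, in spleen than in marrow. The samples were chosen by their labels alone, as every library of a G-CSF-treated mouse, which gave 15 of the 22 libraries of the series. They are 3 WT marrow, 4 KO marrow, 4 WT spleen and 4 KO spleen libraries.

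KO mice lack Cd53 and WT mice are their littermates without the deletion. All 4 groups had G-CSF for 7 days, so none is an untreated control, and saline libraries entered only the shared estimate of spread. HSCs were sorted as lineage-negative, Kit-positive and Sca-1-positive cells (KSL) without CD48 and with CD150, and cDNA was made by a low-input method from total RNA. Age, sex, strain and the kind of Cd53 deletion are not given in the sources used here. Nothing in the labels says whether each library came from a separate mouse, so the p-values measure only the spread between these libraries.

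G-CSF drives neutrophil production and loosens the contacts that hold HSCs in their marrow niches, so that some enter the blood and settle in the spleen. CD53 is a tetraspanin, a membrane protein that gathers other receptors into patches on leukocytes. The study's title links it to the DREAM complex, in which the pocket proteins p130 and p107, E2F4 or E2F5 with a DP partner, and the MuvB core sit on promoters of cell cycle genes and keep them silent in resting cells. MuvB reaches the G2 and mitosis genes through its subunit LIN54, which reads a short promoter element named CHR, TTTGAA on either strand.

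A promoter of each of 4 genes is shown because the genes stand for both kinds of gene in the comparison. Prr11 and Cenpe are mitotic genes that were higher in KO marrow. Phactr2 and Syne3 lead the interaction in opposite directions. Each window runs 5′ to 3′ on the gene's strand, from 250 bases before to 50 bases after a start annotated by RefSeq on GRCm38.p6. Capitals mark TTTGAA or its reverse complement TTCAAA.
Prr11: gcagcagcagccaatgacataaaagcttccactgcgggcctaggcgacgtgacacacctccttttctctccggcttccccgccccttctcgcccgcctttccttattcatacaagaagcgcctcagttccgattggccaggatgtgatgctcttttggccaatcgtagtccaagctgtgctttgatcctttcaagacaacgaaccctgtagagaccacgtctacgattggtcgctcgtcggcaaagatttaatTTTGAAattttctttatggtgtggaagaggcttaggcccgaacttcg
Cenpe: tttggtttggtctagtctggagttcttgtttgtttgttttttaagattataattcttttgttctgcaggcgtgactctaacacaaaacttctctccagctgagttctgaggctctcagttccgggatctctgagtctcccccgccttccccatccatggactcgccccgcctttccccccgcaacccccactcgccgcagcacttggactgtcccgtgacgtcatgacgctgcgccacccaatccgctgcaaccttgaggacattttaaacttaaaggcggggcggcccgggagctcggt
Phactr2: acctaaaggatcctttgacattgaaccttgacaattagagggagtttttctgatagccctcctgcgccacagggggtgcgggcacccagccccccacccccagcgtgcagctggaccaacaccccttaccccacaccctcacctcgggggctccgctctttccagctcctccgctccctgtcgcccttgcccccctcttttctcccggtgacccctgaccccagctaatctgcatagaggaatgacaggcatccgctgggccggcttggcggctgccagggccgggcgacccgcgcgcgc
Syne3: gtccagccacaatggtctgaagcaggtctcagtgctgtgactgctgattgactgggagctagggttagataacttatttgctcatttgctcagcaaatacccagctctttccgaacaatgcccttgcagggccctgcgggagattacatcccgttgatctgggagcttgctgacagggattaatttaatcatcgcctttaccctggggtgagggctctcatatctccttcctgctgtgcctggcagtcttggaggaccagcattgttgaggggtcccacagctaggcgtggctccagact
The windows are chr11:87108665-87108964, minus strand (Prr11), chr3:135212313-135212612, plus strand (Cenpe), chr10:13324240-13324539, minus strand (Phactr2) and chr12:104998628-104998927, minus strand (Syne3). The Phactr2 and Syne3 windows lie inside the gene spans given below, downstream of the outermost start. Other promoters of these genes were not searched. The Prr11 window holds the element once, starting at base 254, and the other 3 windows hold neither orientation of it. Windows of Cit, Arhgef39 and Neil3, also called in KO against WT marrow, were read in the same way and held it 0 times. Of the 70 G2 and mitosis genes of the list used below that matched a promoter, 47 (67.1%) had the element in the 300-base window, and 42 had it in its last 100 bases. Among the 10276 tested genes with a promoter the share was 12.0% for the window and 2.93% for the last 100 bases. A match of letters is a description of the sequence and not a binding site.

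Depth was even across the 15 libraries, with 22578088 to 31268856 reads in listed genes. Levels are in log2 CPM, where CPM is a read count divided by library size. Of the genes the gate selects, Kit had group means of at least 9.36 log2 CPM, Ly6a (Sca-1) of 8.11 to 8.58 and Slamf1 (CD150) of 5.20 to 5.89. Cd48, which it excludes, had 3.85 to 4.23. Of 44 markers of 9 other cell types or lineages, 27 had values. The 6 measured macrophage markers summed to 121 to 139 CPM in WT marrow, 107 to 147 in KO marrow, 216 to 258 in WT spleen and 202 to 225 in KO spleen. Cd68 alone makes up most of that sum, with group means of 6.78, 6.83, 7.80 and 7.61 log2 CPM in the same order. A wider macrophage list of 13 genes, weighted equally, had a mean that went the other way between the tissues in WT. This mean was 1.84 log2 CPM in WT marrow, 1.23 in KO marrow, 1.29 in WT spleen and 1.11 in KO spleen. The WT libraries overlapped, at 1.36 to 2.40 in marrow and 0.88 to 1.59 in spleen. In WT spleen 3 of the 13 fell (6.83% of all genes fell) and 1 rose (6.93%). Of the defining macrophage markers Spic had group means of 3.42 to 4.16 log2 CPM, C1qb was at most 1.14, and C1qc and Adgre1 were below 0. Those of megakaryocytes, which HSCs also carry, summed to 167 to 204 CPM in WT marrow, 96.3 to 174 in KO marrow, 76.5 to 106 in WT spleen and 91.1 to 110 in KO spleen. Of the 4 dendritic cell markers among the 44, only Flt3, also a receptor of progenitors, had values. It ran from 198 to 235 CPM in WT marrow, 104 to 343 in KO marrow, 37.5 to 58.6 in WT spleen and 54.0 to 109 in KO spleen. A wider dendritic cell list of 8 genes had means of 4.63 log2 CPM in WT marrow, 4.16 in KO marrow, 4.52 in WT spleen and 3.88 in KO spleen. KO minus WT was -0.47 ± 0.11 (SE) in marrow and -0.64 ± 0.18 in spleen, and the genotypes did not overlap in either tissue. The interaction of this mean was -0.17 ± 0.21. A wider B cell list of 3 genes had a mean of 1.99 to 3.24 log2 CPM in WT marrow libraries and 3.71 to 4.22 in KO marrow. KO minus WT was 1.18 ± 0.40 in marrow and -0.008 ± 0.58 in spleen, an interaction of -1.19 ± 0.70. The 2 measured B cell markers of the 44 overlapped in marrow, at 100 to 127 CPM in WT and 103 to 141 in KO. Wider lists of T and NK cells, neutrophils, and mast cells and basophils had interactions of 0.10 ± 0.48, -1.13 ± 1.45 and 0.77 ± 1.83. The part of these markers in the results below was not tested, and in bulk samples fewer cells of a type cannot be told from less RNA per cell.

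One library stood apart from its group. On the first principal component over 9347 genes, which held 30.8% of the variance, KO marrow replicate 3 lay at -25.5. WT marrow lay at -27.2, -11.8 and -20.9, and the other KO marrow libraries at -1.45, -2.75 and 0.24. KO marrow replicate 3 was also nearer on average to WT marrow (Euclidean distance 33.5 over those genes, log2 units) than to the rest of KO marrow (45.6). Its Cd53 level of 6.06 log2 CPM was far below the G-CSF-treated WT libraries (9.51 to 9.83). Within-library deviations from the gene mean also followed transcript GC content most steeply upward in this library (Spearman correlation 0.24 across genes) and most steeply downward in KO marrow replicate 4 (correlation -0.35). Counts of calls are therefore given with and without KO marrow replicate 3, as 1 of the 15 omissions of a single library. Interactions and list medians whose call or sign changed without it are given both ways. For some of the genes of smallest p only the call without it is stated.

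**Figure D1:**
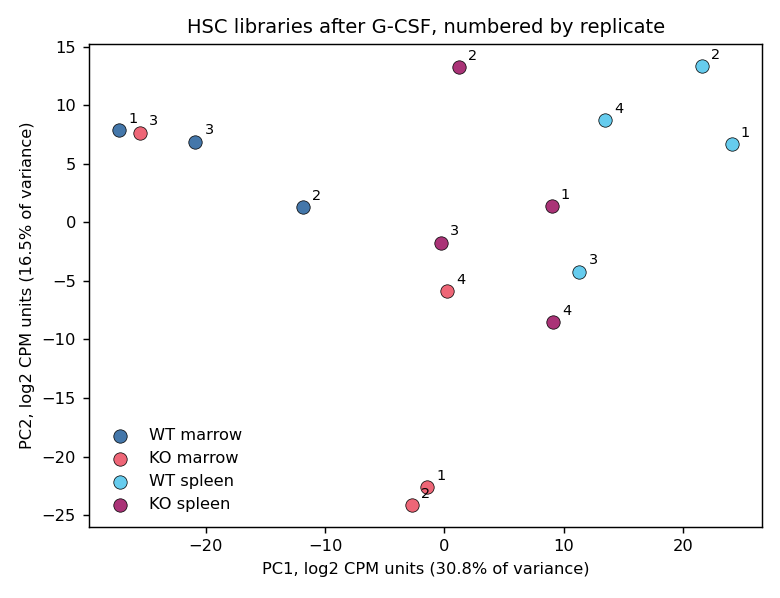
Positions of the 15 libraries on the first 2 principal components of log2 CPM over 9347 genes, coloured by group and numbered by replicate. KO marrow replicate 3, at -25.5 on the horizontal axis, lies among the WT marrow libraries and away from the other KO marrow libraries.

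Cd53 (ENSMUSG00000040747, chr3:106759921-106790149, minus strand, mm10) was read first, since it checks the genotype labels. It lay at 9.57, 9.83 and 9.80 log2 CPM in WT marrow and at 6.28, 6.59, 6.06 and 6.36 in KO marrow. In WT spleen it lay at 9.60, 9.77, 9.65 and 9.51, and in KO spleen at 6.25, 6.36, 6.18 and 6.40. Every KO library was below every WT library, by a similar margin in both tissues. The saline libraries lay lower in both genotypes, at 5.75 to 6.18 in WT and 2.02 to 3.61 in KO, so treated KO libraries reached the level of saline WT and the labels are checked only within a treatment. The interaction was 0.08 ± 0.32 (SE; adjusted p = 0.942), and -0.011 without KO marrow replicate 3.

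No gene passed the interaction test on all libraries. limma called 0 of 13571 genes at a Benjamini-Hochberg adjusted p under 0.05 (0%), and the smallest adjusted p was 0.177. voom, limma's count method, on reads recovered from the table also called 0. At an unadjusted p under 0.05 there were 1758 genes (13.0%), 909 with a positive interaction (6.70%) and 849 with a negative one (6.26%), and by voom 1712. Scaling to the total of the listed genes turned that split to 1203 against 566 and moved the median of all genes from -0.01 to 0.05.

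Without KO marrow replicate 3, 245 genes passed (1.81%), 191 with a positive interaction (1.41%) and 54 with a negative one (0.398%). All 245 had the same sign with the library kept. The 191 genes had a median interaction of 0.91 with all libraries and 1.13 without that one, and in WT their median spleen minus marrow difference was -0.79 against 0.10 in KO. The 54 genes had medians of -0.64 and -0.76, with a tissue difference of 0.60 in WT and -0.08 in KO. In 170 of the 191 and 34 of the 54, KO marrow replicate 3 was the KO marrow library nearest to the WT marrow mean. The same held for 34.6% of all genes tested. All 245 were chosen by passing only once that library was left out. These shares and medians are therefore a description.

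GC content moved with this count. The median transcript GC content was 56.6% for the 191 genes, 48.3% for the 54 and 49.4% for all tested. With GC and length trends taken out of each library, a step chosen after the data were seen, 0 genes passed with all libraries (1539 at an unadjusted p under 0.05) and 13 without KO marrow replicate 3, all of them among the 245. The 13 include Syne3, Mapk7, Vcam1 and Dda1 of the genes described below, and Hoxb4, a homeobox factor of stem cells, at -1.73 ± 0.33 (limma adjusted p = 0.0476). Hoxb4 was picked from the 13 after its value was seen.

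No other omission came near this count. Leaving out WT marrow replicate 1 gave 1 gene (Gm10827), WT marrow replicate 2 gave 2 (Spocd1 and Gm9828), WT spleen replicate 3 gave 1 (Phactr2), and each of the 11 remaining libraries gave 0. Gm10827 and Spocd1 had group means under 1 log2 CPM throughout, and Gm9828 under 3.

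**Figure D2:**
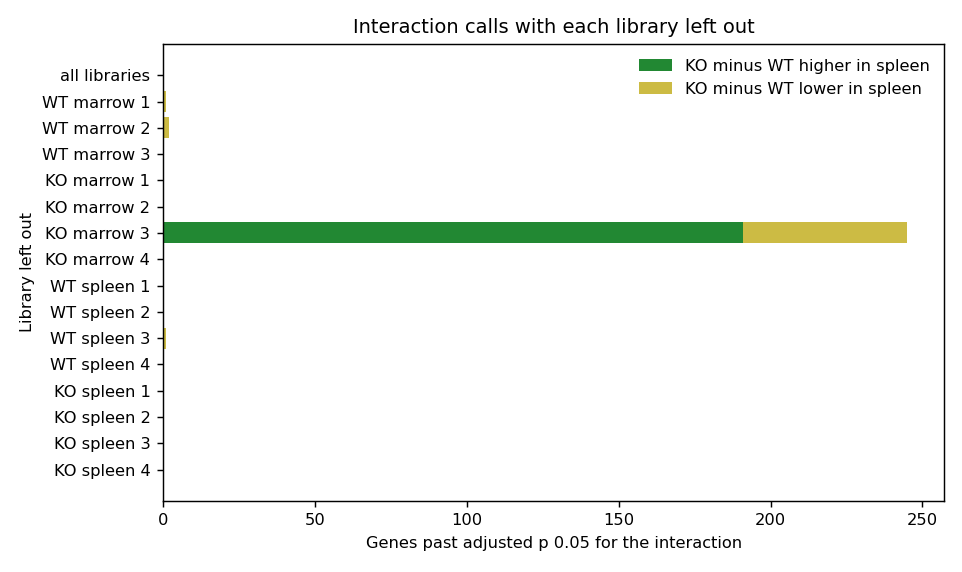
Number of genes past an adjusted p of 0.05 for the interaction with all 15 libraries and with each left out in turn, stacked by direction. Without KO marrow replicate 3 the bar reaches 245 genes, 191 of them positive, while the other bars hold 0 to 2.

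The genes described next are the 10 of smallest p in each direction, since none passed on all libraries. All 20 passed without KO marrow replicate 3, and all 20 kept their sign in each of the 15 omissions. In each of them KO minus WT had opposite signs in marrow and spleen. The same libraries ranked these genes on the interaction, so the kept and opposite signs are a description and not a check. In 8 of the 10 positive and 3 of the 10 negative genes, KO marrow replicate 3 was the KO marrow library nearest to WT marrow. Where a call other than that of Cd53 is given for KO against WT in marrow, it held in some alternatives and not in others. Cd53 was the only gene called there without KO marrow replicate 2, without the variance trend, or with GC and length trends taken out.

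Syne3 (ENSMUSG00000054150, chr12:104929933-105009809, minus strand) encodes nesprin-3, which ties the outer nuclear membrane to the cytoskeleton. It lay at 4.45, 3.71 and 3.62 log2 CPM in WT marrow, 2.80, 3.20, 3.80 and 3.25 in KO marrow, 2.66, 3.29, 3.41 and 2.96 in WT spleen, and 3.79, 4.40, 4.11 and 4.16 in KO spleen. All KO spleen libraries were above all WT spleen libraries, and in marrow KO was below WT except for replicate 3. The interaction was 1.70 ± 0.33 (SE; adjusted p = 0.177), and 1.88 ± 0.31 without that library (adjusted p = 0.00981). Over the omissions it ran from 1.44 to 1.88.

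Mapk7 (ENSMUSG00000001034, chr11:61488812-61494406, minus strand) encodes ERK5, a MAP kinase of growth factor and stress signalling. Its levels were 4.75, 4.21 and 4.35 log2 CPM in WT marrow, 3.01, 3.36, 4.55 and 3.54 in KO marrow, 2.96, 3.41, 3.68 and 3.26 in WT spleen, and 3.95, 4.55, 4.11 and 4.21 in KO spleen. KO marrow replicate 3 lay inside the WT marrow range and more than 1 log2 unit above the other KO marrow libraries, and the spleen groups did not overlap. The interaction of 1.70 ± 0.39 became 2.01 ± 0.33 without it (adjusted p = 0.248 and 0.00981).

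Prkcsh encodes the beta subunit of glucosidase II, which trims sugars from new proteins in the endoplasmic reticulum (ER). It lay at 6.07, 5.42 and 5.86 log2 CPM in WT marrow, 4.44, 4.33, 5.0 and 5.53 in KO marrow, 4.98, 5.38, 5.30 and 5.51 in WT spleen, and 5.49, 5.67, 5.57 and 5.65 in KO spleen. Here KO marrow replicate 4, not 3, lay nearest to WT marrow. The interaction was 1.26 ± 0.29 (adjusted p = 0.248; 0.0333 without KO marrow replicate 3).

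Both AP-5 genes among the 20 had positive values. Ap5z1 and Ap5b1 encode subunits of the AP-5 adaptor, which sorts cargo at late endosomes, and had interactions of 1.09 ± 0.26 and 1.60 ± 0.39. Ap5b1 lay at 3.70, 3.25 and 3.60 log2 CPM in WT marrow, 1.58, 1.92, 3.07 and 2.58 in KO marrow, 1.95, 2.51, 2.13 and 2.11 in WT spleen, and 2.40, 2.67, 2.56 and 2.56 in KO spleen. WT marrow was thus above every other library for this gene. The remaining positive genes are Arap1, a GTPase-activating protein (0.75 ± 0.17), Mbp, the myelin basic protein gene (0.75 ± 0.16), Cc2d1a, a signalling scaffold (1.31 ± 0.31), Ctdp1, the phosphatase that resets RNA polymerase II (1.50 ± 0.36), and Zfp202, a zinc finger gene (1.22 ± 0.30). Their adjusted p-values with all libraries ran from 0.237 to 0.260 in limma.

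Phactr2 (ENSMUSG00000062866, chr10:13207717-13474412, minus strand) encodes a regulator of protein phosphatase 1 and actin. It lay at 5.10, 5.03 and 5.11 log2 CPM in WT marrow, 5.94, 5.53, 4.99 and 5.25 in KO marrow, 7.18, 8.44, 6.87 and 8.18 in WT spleen, and 6.65, 6.0, 5.38 and 5.56 in KO spleen. WT spleen was above every library of the other 3 groups. Phactr2 rose from marrow to spleen in WT by 2.59 (adjusted p = 1.3e-05) and had a difference of 0.47 in KO (adjusted p = 0.58). KO spleen was lower than WT spleen by -1.77 (adjusted p = 0.016). That call was lost without any 1 of WT spleen replicates 2 and 4 and KO spleen replicates 2, 3 and 4, with the compared groups alone, and without the variance trend (adjusted p up to 0.162). The interaction was -2.12 ± 0.42 (adjusted p = 0.177), -2.26 without KO marrow replicate 3 (adjusted p = 0.0188) and -2.38 without WT spleen replicate 3 (adjusted p = 0.0492).

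Mcu (ENSMUSG00000009647, chr10:59446984-59616692, minus strand) encodes the pore of the mitochondrial calcium uniporter. Its levels were 4.65, 4.40 and 4.76 log2 CPM in WT marrow, 5.72, 5.58, 5.23 and 4.96 in KO marrow, 5.30, 5.20, 5.12 and 5.16 in WT spleen, and 5.05, 4.87, 5.05 and 5.14 in KO spleen. It was higher in KO than in WT marrow by 0.77 (adjusted p = 0.038, called in 6 of the 15 omissions), with no overlap, whereas the spleen groups met. The interaction was -0.94 ± 0.21 (adjusted p = 0.248; 0.0317 without KO marrow replicate 3).

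Oscp1, a little-studied gene named for a link to solute carriers, had the same shape at a lower level. It lay at 2.10, 2.33 and 2.80 log2 CPM in WT marrow, 4.14, 3.27, 3.71 and 3.46 in KO marrow, 2.90, 3.21, 3.50 and 3.41 in WT spleen, and 3.20, 3.14, 3.50 and 3.02 in KO spleen. WT marrow was the low group and the other 3 overlapped. The interaction was -1.27 ± 0.31 (adjusted p = 0.252; 0.0492 without KO marrow replicate 3).

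Among the other negative genes are Tmem126a, an assembly factor of respiratory complex I (-0.71 ± 0.17), Mrpl24, a mitochondrial ribosomal protein (-0.46 ± 0.11), Parp2, a sensor of DNA breaks (-0.46 ± 0.12), Trappc6b, of a vesicle tethering complex (-1.06 ± 0.27), Mpzl1, a surface glycoprotein that binds the phosphatase SHP-2 (-0.89 ± 0.20), the F-box gene Fbxo36 (-1.46 ± 0.34) and the membrane protein gene Tmem141 (-0.86 ± 0.19). In limma their adjusted p-values were 0.237 to 0.280 with all libraries. Of the 87 named genes, 25 have exons that overlap another gene. Those of Arap1, Cd27 and Ifitm2 overlap a gene on the same strand. Exons of Mapk7, Ctdp1 and Mrpl24 overlap a gene on the other strand. Of genes described below, so do Rbl2, Dda1, Stat5a, Vcam1, Pdia3, Itga4, Ccnd1, Cdk6, Cdkn1c and Lin37. The same holds for Srebf1, Mrtfa, Tap1, Tspan4, Ndufa3, Rpl28, Rpl5 and Rpl35. The labels do not say that counting used strand, so reads of such pairs cannot be told apart.

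**Figure D3:**
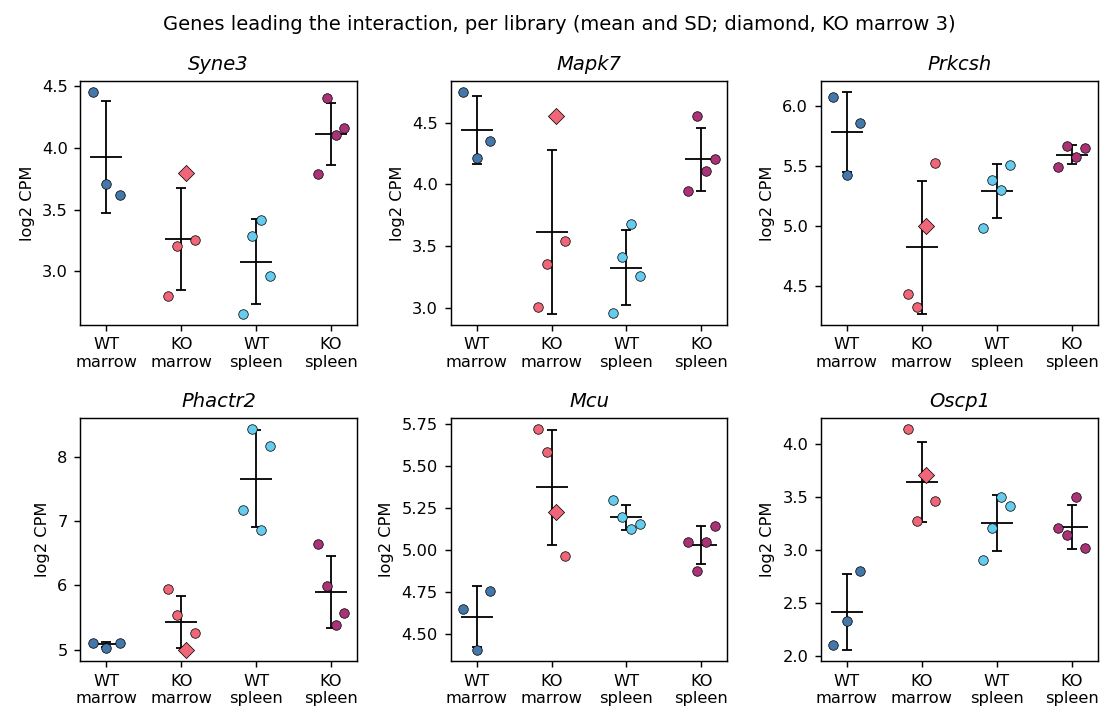
Levels of 6 genes leading the interaction in log2 CPM, 1 point per library, with bars for the group mean and SD (n = 3 for WT marrow, 4 for the others) and a diamond for KO marrow replicate 3. In Syne3, Mapk7 and Prkcsh the KO mean is below WT in marrow and above it in spleen. Phactr2 is high in WT spleen alone, and Mcu and Oscp1 are low in WT marrow.

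Each interaction can be read as a difference between the genotypes' own spleen minus marrow comparisons. In WT, 1867 genes passed that comparison (13.8%), 940 higher and 927 lower in spleen. In KO, 172 passed (1.27%), 129 higher and 43 lower. The 117 genes past the threshold in both are 6.27% of the WT list and 68.0% of the KO list, and all 117 had the same sign. Counts of calls do not show that the tissue differences differ, which is what the interaction tests. The WT count was 674 without WT marrow replicate 1, 978 without WT marrow replicate 3, and 1078 and 1058 without WT spleen replicates 1 and 2. The KO count was 110, 99, 97 and 101 without KO spleen replicates 1 to 4, and 198 without KO marrow replicate 3 (1.46%).

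Genes chosen for passing in WT had smaller tissue differences in KO. The 940 higher in WT spleen had a median difference of 0.62 in WT and 0.17 in KO, and the 927 lower had medians of -0.70 and -0.15. Since WT values chose these genes, their WT medians are a description. Genes chosen for passing in KO had smaller differences in WT, by less. The 129 higher in KO spleen had medians of 0.84 in KO and 0.76 in WT, and the 43 lower had medians of -0.86 and -0.65, with the KO values here chosen in the same way.

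**Figure D4:**
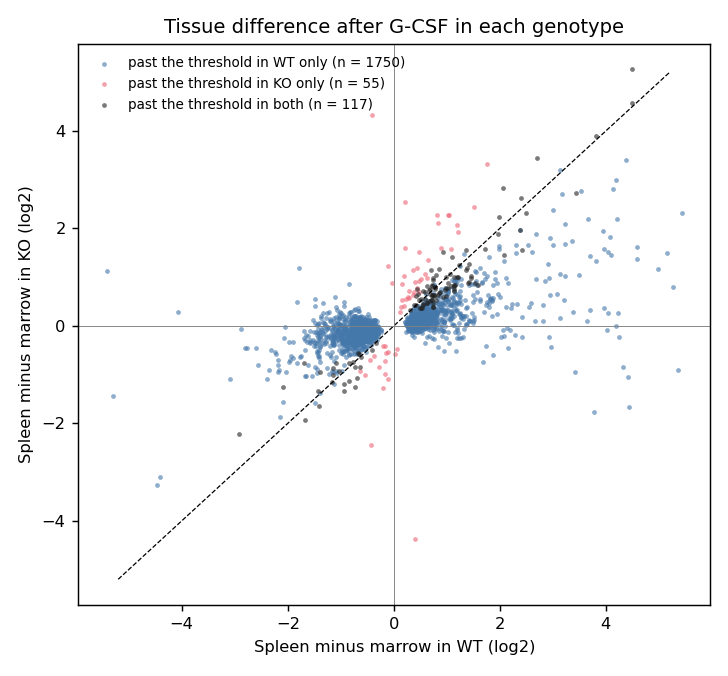
Spleen minus marrow difference in WT (horizontal) against KO (vertical), log2, for genes past the threshold in WT (blue, 1750), in KO (red, 55) or in both (black, 117), with a dashed line of equal values. Blue points lie flatter than the dashed line, and black points lie along it. The calls set the colours, so this layout follows in large part from the choice of genes and is a description.

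Several genes changed between the tissues in both genotypes. Lmna, which encodes lamins A and C of the nuclear lamina, lay at 3.17, 2.72 and 2.23 log2 CPM in WT marrow, 2.27, 2.35, 2.77 and 2.03 in KO marrow, 5.46, 4.59, 5.22 and 5.19 in WT spleen, and 4.82, 4.69, 5.34 and 5.08 in KO spleen. Spleen was above marrow in every library. Lmna rose by 2.41 in WT and 2.63 in KO, and the interaction was 0.22 ± 0.33 (adjusted p = 0.805). Neo1, which encodes the receptor neogenin, rose by 3.43 and 2.73, and Ehd2, a membrane-shaping ATPase, by 2.70 and 3.44. Vldlr, a lipoprotein receptor, fell by 1.43 and 1.34, and Chad, a matrix protein, fell by 1.41 and 1.64. The interactions of Neo1, Ehd2, Vldlr and Chad had adjusted p-values of 0.574, 0.604, 0.853 and 0.771.

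The largest falls named in WT spleen were of genes with wide spread between libraries. Pdia3, an ER folding enzyme, lay at 9.89, 9.65 and 9.77 log2 CPM in WT marrow, 9.35, 9.66, 9.59 and 6.88 in KO marrow, 6.92, 6.25, 7.50 and 7.20 in WT spleen, and 8.14, 8.76, 9.59 and 7.22 in KO spleen. KO marrow replicate 4 and KO spleen replicate 4 lay near WT spleen, so the KO groups overlapped. Its interaction of 2.36 ± 0.84 had an adjusted p of 0.295 and ran from 1.69 to 2.76 over the omissions. Pfn1, the actin-binding protein profilin-1, and Sdf2l1, an ER chaperone partner, had interactions of 2.15 ± 0.90 and 2.31 ± 0.88. Apoe, apolipoprotein E, had 2.82 ± 0.90, and 3.47 ± 0.80 without KO marrow replicate 3 (adjusted p = 0.281 and 0.0333). Apoe is also made by macrophages. The mean of the 13 macrophage genes, a low one at 1.84 log2 CPM in WT marrow, was lower in KO than WT marrow, by -0.61 ± 0.32 (SE). It was also lower in WT spleen than WT marrow, by -0.55, and the libraries overlapped in both comparisons. The interaction of this mean was 0.42 ± 0.37. Cd68, the macrophage marker that made up most of the summed CPM above, went otherwise. It lay at 6.78 log2 CPM in WT marrow and 6.83 in KO marrow, and rose in WT spleen by 1.02 (limma adjusted p = 1.3e-05). The summed CPM of the 6 measured markers also overlapped between the genotypes in marrow. The part of macrophage genes in the Apoe values was not tested.

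G2 and mitosis genes bound by DREAM were higher in KO in both tissues, by about the same amount. Their mean over 87 genes was 5.55, 5.29 and 5.11 log2 CPM in WT marrow and 5.73, 5.80, 6.07 and 5.95 in KO marrow. It was 4.62, 4.61, 5.27 and 5.15 in WT spleen and 5.52, 5.36, 5.70 and 5.33 in KO spleen. The genotypes did not overlap in either tissue. The KO minus WT difference of this mean was 0.57 ± 0.15 in marrow and 0.56 ± 0.19 in spleen (SE from the library means), and the interaction was -0.01 ± 0.24. The same 48.7% of all genes tested stands beside every count of positive genes in this list and those below. Over single genes the median interaction was -0.03 (0.00088 without KO marrow replicate 3), with 37 of 87 positive. It ran from -0.17 without WT spleen replicate 1 to 0.10 without WT spleen replicate 3, and was 0.03 when scaled to the listed genes. Of all genes, 20 passed for KO against WT in marrow (0.147%), 17 higher in KO (0.125%) and 3 lower (0.0221%), and 2 passed in spleen (0.0147%), Cd53 and Phactr2, both lower. Of the 87 genes, 7 passed in marrow, all higher in KO, and 0 in spleen. Without KO marrow replicate 3 the marrow counts were 504 of all genes (3.71%), 245 higher (1.81%) and 259 lower (1.91%), with 21 of the 87 higher. Some other omissions lowered the count among the 87. None of the 87 passed in marrow without KO marrow replicate 2 (1 gene in all, Cd53) or WT marrow replicate 3 (7 in all), 1 passed without KO marrow replicate 1 (3 in all), 2 without WT marrow replicate 2 (22 in all) and 3 without KO marrow replicate 4 (20 in all). Without WT spleen replicate 4, KO spleen replicate 1 or KO spleen replicate 3, 5 of the 87 passed (13, 12 and 13 in all), and without KO spleen replicate 2, 10 passed (36 in all). None passed without the variance trend or with GC and length trends taken out, 2 with the compared groups alone, 1 with sample weights and 4 when scaled to the listed genes. In spleen 15 of the 87 passed without WT spleen replicate 3 (31 in all) and 47 with sample weights (309 in all), all higher in KO.

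Within that list Cit, a kinase of cytokinesis, had the smallest interaction p. It lay at 6.64, 6.60 and 6.26 log2 CPM in WT marrow, 7.61, 7.59, 7.14 and 7.18 in KO marrow, 6.53, 6.54, 6.92 and 6.86 in WT spleen, and 7.11, 6.97, 7.17 and 7.01 in KO spleen. KO was above WT without overlap in both tissues, by 0.88 ± 0.15 in marrow (adjusted p = 0.028) and 0.35 ± 0.14 in spleen (adjusted p = 0.33). The interaction was -0.53 ± 0.21 (adjusted p = 0.315). Cenpe, a motor of the kinetochore, had KO minus WT values of 1.03 ± 0.20 and 0.57 ± 0.18, and Prr11 of 1.03 ± 0.19 and 0.77 ± 0.18. Neil3, a DNA glycosylase of dividing cells, had 1.47 ± 0.30 and 1.04 ± 0.28. All 3 passed in marrow and none in spleen with all libraries, while their interactions of -0.46, -0.26 and -0.43 had adjusted p-values of 0.464, 0.687 and 0.669. Their marrow calls held in 10, 11 and 5 of the 15 omissions and that of Cit in 12, and all 4 were lost without KO marrow replicate 2, without the variance trend and with GC and length trends taken out. Passing in marrow alone does not by itself show a difference between the tissues. Lmnb1, of the lamin B1 shell, went the other way with an interaction of 0.98 ± 0.45 (adjusted p = 0.369).

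The 13 subunits of DREAM and MuvB had a median interaction of 0.18, from 0.03 without KO marrow replicate 1 to 0.19 without KO marrow replicate 3. Rbl2, which encodes p130, lay at 6.34, 6.07 and 6.17 log2 CPM in WT marrow, 5.65, 5.60, 6.28 and 5.37 in KO marrow, 5.75, 5.69, 5.39 and 5.48 in WT spleen, and 5.72, 6.06, 6.22 and 5.69 in KO spleen. KO marrow replicate 3 was the only KO marrow library within the WT marrow range. The interaction was 0.81 ± 0.25 (adjusted p = 0.281), and 1.0 ± 0.22 without it (adjusted p = 0.0320). Exons of Rbl2 overlap Aktip on the other strand. The MuvB subunits Lin54 and Lin37 had interactions of 0.55 ± 0.25 and -0.32 ± 0.15 (adjusted p = 0.362 and 0.380).

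CDK inhibitors and D cyclins, which set the brake and the start of the cycle, had a median of -0.09 over 11 genes, 4 of them positive. Cdkn1c, the p57 inhibitor that holds HSCs at rest, lay at 3.35, 3.52 and 3.03 log2 CPM in WT marrow, 4.14, 5.08, 3.94 and 3.84 in KO marrow, 4.04, 4.14, 4.08 and 4.20 in WT spleen, and 3.97, 4.25, 4.06 and 4.50 in KO spleen. WT marrow lay below all other libraries. The interaction was -0.87 ± 0.30 (adjusted p = 0.286). Cdk6, a kinase partner of the D cyclins, had -0.57 ± 0.23, and cyclin D1 (Ccnd1) 0.95 ± 0.34 (adjusted p = 0.320 and 0.295).

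Replication genes of G1 and S phase had a median of 0.08 over 60 genes. The KO minus WT median was 0.13 in marrow and 0.28 in spleen. Pold1, the catalytic subunit of polymerase delta, had an interaction of 1.17 ± 0.33 (adjusted p = 0.281; 0.0473 without KO marrow replicate 3). Its WT spleen levels of 4.89, 5.47, 6.20 and 6.17 log2 CPM were below those of every other group. The helicase genes Mcm6 and Mcm2 had 1.33 ± 0.47 and 0.61 ± 0.22 (adjusted p = 0.295 and 0.298). At an unadjusted p under 0.05, 6 of the 60 were positive and 0 negative, against 6.70% and 6.26% of all genes.

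Genes of the p53 list had a median of 0.20 over 25, from 0.09 without KO marrow replicate 4 to 0.36 without KO spleen replicate 1. Ccng1, cyclin G1, and Sesn1, a sestrin of the stress response, are p53 targets with interactions of 0.95 ± 0.27 and 0.38 ± 0.16 (adjusted p = 0.281 and 0.325). Ccng1 had 1.09 ± 0.26 without KO marrow replicate 3 (adjusted p = 0.0353). Dda1, a partner of DDB1 ubiquitin ligases, had 1.09 ± 0.43, and 1.52 ± 0.29 without KO marrow replicate 3 (adjusted p = 0.315 and 0.0188). The exons of Dda1 overlap those of Ano8.

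HSC identity genes had a median interaction of 0.03 over 46 genes, 24 of them positive, and -0.01 without WT marrow replicate 3. Their tissue medians were 0.12 in WT and 0.16 in KO. Emcn, endomucin of the HSC surface, had an interaction of -0.42 ± 0.16, and Ifitm1, an interferon-induced membrane protein, of -0.41 ± 0.13 (adjusted p = 0.312 and 0.281). For the gate genes the values were 0.37 ± 0.27 (Kit), 0.08 ± 0.17 (Ly6a), -0.32 ± 0.42 (Cd48) and -0.22 ± 0.25 (Slamf1). Multipotent and lymphoid progenitor genes had a median of 0.06 over 19, which was -0.05 without WT spleen replicate 4 and -0.05 after quantile normalization. Flt3, the cytokine receptor of multipotent progenitors, fell in spleen by 2.08 in WT and 1.26 in KO (adjusted p = 0.00058 and 0.041). Its interaction was 0.83 ± 0.45 (adjusted p = 0.434). Cd27, a receptor of the TNF family, had -0.39 ± 0.14, and -0.48 ± 0.12 without KO marrow replicate 3 (adjusted p = 0.290 and 0.0492).

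Adhesion and mobilisation genes, which hold HSCs in the niche, had a median of 0.03 over 40, and -0.02 without KO marrow replicate 3. Vcam1 (ENSMUSG00000027962, chr3:116109949-116129688, minus strand), the ligand of integrin VLA-4, had an interaction larger than those of the 20 leading genes. It lay at 2.81, 1.56 and 2.74 log2 CPM in WT marrow, 0.13, -0.32, 0.74 and -0.02 in KO marrow, 0.49, 0.01, 1.25 and 0.62 in WT spleen, and 0.67, 0.74, 1.67 and 2.20 in KO spleen. KO marrow was below WT marrow without overlap, with a KO minus WT value of -2.24 (adjusted p = 0.043, called in 6 of the 15 omissions), and the spleen groups overlapped. The interaction was 2.97 ± 0.62 (adjusted p = 0.237), and 3.17 ± 0.64 without KO marrow replicate 3 (adjusted p = 0.0272). The level is low, and endothelium, stroma and macrophages also make Vcam1. The 3 measured endothelial and stromal markers summed to 208 to 252 CPM in WT marrow, 243 to 280 in KO marrow, 239 to 276 in WT spleen and 231 to 310 in KO spleen. A wider list of 10 such genes, which holds Vcam1, had means of 2.21 log2 CPM in WT marrow, 2.06 in KO marrow, 1.80 in WT spleen and 2.06 in KO spleen, an interaction of 0.40 ± 0.23, and 0.12 ± 0.21 with Vcam1 left out. The 13 macrophage genes, which also hold it, had 0.42 ± 0.37, and 0.21 ± 0.38 with Vcam1 left out. Their part in the Vcam1 values was not tested. Selplg, the ligand of selectins, had 0.68 ± 0.28, and 0.93 ± 0.21 without KO marrow replicate 3 (adjusted p = 0.319 and 0.0333). Itga4, a subunit of VLA-4, had 0.40 ± 0.17 (adjusted p = 0.331).

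STAT3 and STAT5 carry the G-CSF receptor signal, and their list had a median of 0.24 over 32 genes, 19 of them positive. Stat5a lay at 6.56, 6.21 and 6.77 log2 CPM in WT marrow, 5.92, 6.09, 6.68 and 6.22 in KO marrow, 5.89, 5.90, 5.81 and 5.85 in WT spleen, and 5.94, 6.16, 6.08 and 6.25 in KO spleen. Its interaction was 0.53 ± 0.20, and Stat5b had 0.45 ± 0.17 (adjusted p = 0.312 and 0.303). Without KO marrow replicate 3, Stat5a had 0.68 ± 0.18 (adjusted p = 0.0499). Exons of Stat5a overlap Stat3 on the other strand. Socs2, a feedback inhibitor that STAT5 induces, lay at 5.51, 5.59 and 5.48 in WT marrow, 6.79, 6.39, 6.38 and 6.17 in KO marrow, 6.05, 6.21, 6.46 and 6.68 in WT spleen, and 6.73, 6.72, 6.74 and 6.67 in KO spleen. It was higher in KO in marrow by 0.91 (adjusted p = 0.028, called in 11 of the 15 omissions) without overlap. In spleen the KO minus WT value was 0.37 (adjusted p = 0.34), and the highest WT library, at 6.68, met the lowest KO library. The interaction was -0.54 ± 0.22 (adjusted p = 0.316).

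Unfolded protein response genes, which fold and clear proteins in the ER, leaned to positive interactions. The median over 44 genes was 0.23, and 34 (77.3%) were positive, against 48.7% of all genes tested. Leaving out single libraries gave 0.19 to 0.31. At an unadjusted p under 0.05, 12 were positive (27.3%, against 6.70% of all genes) and 2 negative. None passed after adjustment. Without KO marrow replicate 3, 4 passed as positive and 0 as negative, against 1.41% and 0.398% of all genes. The list's KO minus WT median was -0.32 in marrow and -0.06 in spleen, and in WT 17 of the 44 fell from marrow to spleen (6.83% of all genes fell) against 0 in KO (0.317%). Sel1l, of the ER degradation machine, had an interaction of 0.83 ± 0.26 (adjusted p = 0.281; 0.0939 without KO marrow replicate 3). P4hb, a disulphide isomerase, had 0.47 ± 0.15, and 0.58 ± 0.13 without KO marrow replicate 3, and Edem2, a mannosidase of ER clearance, 0.63 ± 0.21 and 0.75 ± 0.19 (adjusted p = 0.281 each, and 0.0333 and 0.0496). Pdia3 and Sdf2l1, whose libraries split within groups, act in the same compartment.

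Cholesterol synthesis and uptake genes had a median of 0.27 over 26, with 21 positive. Srebf1 and Srebf2 encode the SREBP factors that switch on lipid synthesis. Srebf1 lay at 5.77, 5.54 and 5.52 log2 CPM in WT marrow, 4.93, 4.87, 5.81 and 4.54 in KO marrow, 4.03, 4.32, 4.81 and 4.23 in WT spleen, and 4.62, 5.26, 4.70 and 5.31 in KO spleen. KO marrow replicate 3 was the highest of all 15 libraries, and the other KO marrow libraries were below WT marrow. The interaction was 1.20 ± 0.37, and 1.46 ± 0.33 without that library (adjusted p = 0.281 and 0.0333). Srebf2 had 0.54 ± 0.24, and Pmvk, an enzyme of the mevalonate steps, -0.42 ± 0.17 (adjusted p = 0.359 and 0.316).

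Oxidative phosphorylation and ribosomal protein genes leaned to negative interactions, and the lean was gone once GC and length trends were taken out. The 75 respiratory chain genes had a median of -0.20 with 19 positive, and 0.01 after that step. At an unadjusted p under 0.05, 3 of the 75 were positive and 12 negative, against 6.70% and 6.26% of all genes, and none passed after adjustment. The 80 cytosolic ribosomal protein genes had a median of -0.13 with 14 positive, and 0.01 after the step. Ndufa3 and Ndufa7 of complex I had interactions of -0.39 ± 0.14 and -0.47 ± 0.17, and Sdhb of complex II -0.32 ± 0.12 (adjusted p = 0.298, 0.298 and 0.306). Among ribosomal proteins Rpl28 had -0.55 ± 0.17, Rpl5 -0.73 ± 0.29 and Rpl35 -0.42 ± 0.17 (adjusted p = 0.281, 0.316 and 0.322). Many ribosomal protein genes have near-identical pseudogenes, so these levels are uncertain.

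Interferon response genes were higher in spleen in both genotypes. Of 54 genes, 34 rose from marrow to spleen in WT (6.93% of all genes rose) and 14 in KO (0.951%), and 0 fell in either. Their list mean lay at 6.19, 5.93 and 6.15 log2 CPM in WT marrow, 6.36, 6.41, 6.13 and 6.18 in KO marrow, 6.96, 6.57, 6.71 and 6.78 in WT spleen, and 6.72, 6.74, 6.78 and 6.91 in KO spleen. Every spleen library was above every marrow library. The tissue difference of this mean was 0.67 in WT and 0.52 in KO, an interaction of -0.15 ± 0.14 (SE). The median interaction was -0.17, with 14 of 54 positive, and -0.06 without WT spleen replicate 1. Ifitm2, of the same family as Ifitm1, had -0.31 ± 0.11, and Tap1, the peptide transporter of antigen presentation, 0.54 ± 0.22 (adjusted p = 0.296 and 0.326).

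The 22 tetraspanins, the family of Cd53, had a median of -0.15, and -0.01 with GC and length trends taken out. Tspan4 had an interaction of -0.30 ± 0.11, Tspan9 of 0.60 ± 0.25 and Tspan3 of 0.82 ± 0.39 (adjusted p = 0.303, 0.333 and 0.380). Actin and phosphatase regulators, the list that holds Phactr2, had a median of 0.13 over 33 genes with 22 positive. Diaph3, a formin that builds actin filaments, had 0.75 ± 0.21, and Mrtfa, a coactivator released by actin assembly, 0.70 ± 0.20 (adjusted p = 0.281 each; 0.0496 and 0.0317 without KO marrow replicate 3). Phactr2 thus had the opposite sign to most of its list.

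**Figure D5:**
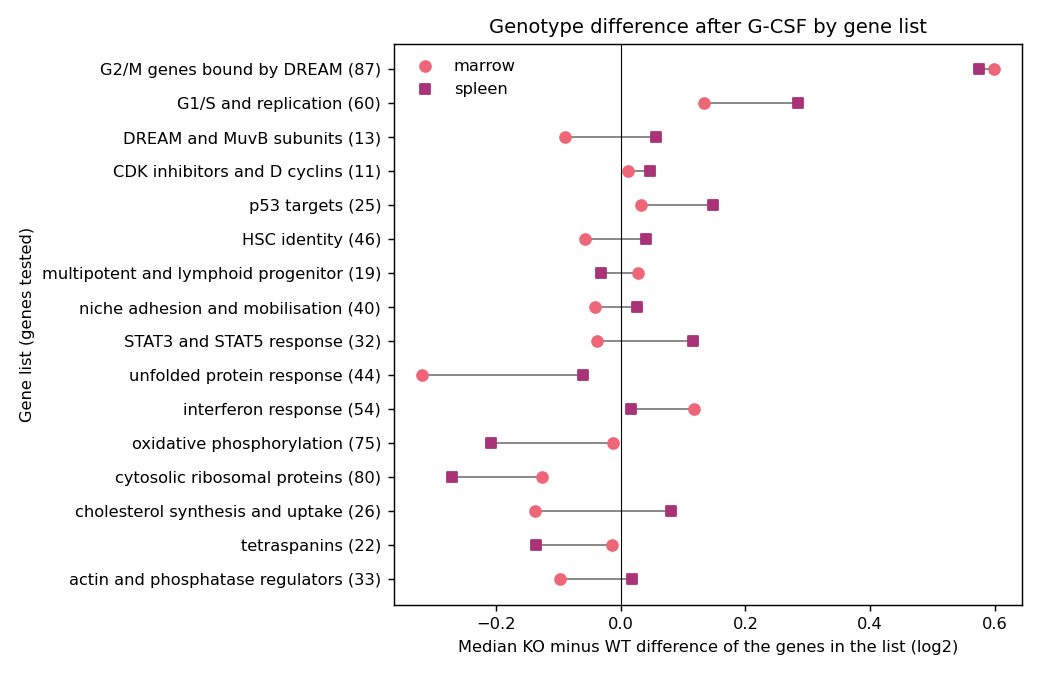
Median KO minus WT difference (log2) of the genes of 16 lists in marrow (circles) and spleen (squares), with the number of genes tested in brackets and a line whose length is the difference between the medians. The G2/M list lies furthest right in both tissues, at 0.60 and 0.57, and the unfolded protein response list is lower in marrow (-0.32) than in spleen (-0.06).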

How the data were processed

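HSC RNA was sequenced and 22 libraries were grouped by their titles. The authors deposited log2 CPM values per gene, computed as log2 of a read count plus 0.5. All values gave whole reads within 0.05. The submitters' processing notes list Salmon 0.8.2, featureCounts 1.4.6-p5 of Subread, STAR 2.5.1a, limma, edgeR and bcl2fastq, and the build mm10. Of 13645 lines, 51 identical repeats were dropped, 19 date-like symbols were restored by identifier, and 13588 of 13594 identifiers matched the gene table.

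The 13571 genes above 1 CPM in at least 3 libraries were fitted together in limma 3.58.1 (statmod 1.5.0, R 4.3.3), which gave each of 6 groups its own mean, left 16 residual degrees of freedom and let the prior variance follow the level. Benjamini-Hochberg adjusted p under 0.05 was the threshold in each of 5 comparisons, and ± is the SE. The fit was also run on simulated reads with known folds in KO spleen alone. Those reads had no GC trend and no library set apart from its group, so that run cannot speak to either. Tables and figures used Python 3.11.15, pandas 2.3.3, NumPy 2.4.6 and matplotlib 3.10.9.

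Genes named are Cd53, the gate genes, the 10 of smallest interaction p per direction among genes reaching 3 log2 CPM in a group, the 3 of smallest p per list, the largest called genotype differences per tissue (up to 6), and the largest called tissue differences per genotype (up to 4 per direction). Predicted genes, segments and pseudogenes were left out, and some genes were left out for length. Of 31 lists, 16 are described, by counts and medians without a test, and some lists of other cell types are given mainly by their means. Members, lists and rule were chosen with earlier results of these data known. Alternatives were the fit, normalization, filter, pseudocount, replicate number, each library left out, and GC and length trends. Depths cover counting error only.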

Additional observations from a re-analysis of the deposited data

Results flagged for a closer look

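Among the named genes, 10 library values stood far from the other 3 of their group by Dixon's criterion for groups of 4, of 261 groups tested. Chance alone flags about 1 group in 20. Values are log2 CPM. In KO marrow, Pdia3 was 6.88 in replicate 4 (others 9.35 to 9.66), Ndufa7 7.52 in replicate 2 (others 7.41 to 7.42), Ly6a 7.98 in replicate 2 (others 8.13 to 8.16) and Cd48 3.71 in replicate 3 (others 4.11 to 4.17). In KO spleen replicate 1, Pold1 was 6.33 (others 6.75 to 6.81) and Cd48 3.73 (others 4.21 to 4.27). In WT spleen, replicate 1 had Edem2 at 6.39 (others 6.74 to 6.79) and Srebf2 at 5.51 (others 5.97 to 6.01), replicate 2 had Pif1 at 2.54 (others 3.22 to 3.33), and replicate 4 had Ehd2 at 2.98 (others 3.43 to 3.48).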

How the results depend on the processing

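The interaction count stayed at 0 in each alternative that kept all libraries. Leaving out 1 library gave 0 to 245, and 13 without KO marrow replicate 3 once GC and length trends were removed. KO against WT in marrow passed 20 genes, 1 to 504 with 1 library left out (504 without KO marrow replicate 3), 5 with the compared groups alone, 1 without the variance trend, 8 with sample weights, 11 by voom, 1 with GC and length removed and 228 when KO marrow replicate 3 was also left out. In spleen it passed 2 genes, 1 to 31 with 1 library left out, 1 with the compared groups alone, 1 without the variance trend and 309 with sample weights. Spleen against marrow in WT ran from 674 to 2177 over the omissions and was 2863 with sample weights. In KO it ran from 97 to 198 and was 110 without the variance trend. The cause was not tested.

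Same-numbered spleen and marrow libraries did not meet the rule used for pairing, that all 7 pairs have correlated deviations above 0.1. Of the 7 pairs, 1 had them and 4 correlated best with their own number. Missing that rule cannot exclude that a number stands for 1 mouse, and the labels do not say. With the replicate number as a fixed block, the interaction count was 0 (1517 genes at an unadjusted p under 0.05) and the WT tissue count 1041. That block also takes WT spleen replicate 4, which has no marrow partner, out of the tissue difference, and leaving it out alone gave 1388. With the block as a random effect the counts were 0 (1863 at an unadjusted p under 0.05) and 1998.

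Of the named genes, 34 passed the interaction test without KO marrow replicate 3 and 1 without WT spleen replicate 3. Near-zero interactions changed sign for Cd53 (-0.011 without KO marrow replicate 3 to 0.17), Lmna (-0.012 without WT marrow replicate 1 to 0.46), Ly6a (-0.012 without WT spleen replicate 3 to 0.16) and Vldlr (-0.014 with sample weights). The planned edgeR test was not run, although whole reads were recovered, and voom on those reads took its place. With 3 or 4 libraries per group, wide intervals limit the interaction.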
